A study of Homo sapiens with 12 samples.

Results

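The late response of SUDHL6 lymphoma cells to the PRMT5 inhibitor GSK591 was read from the 96 h libraries of a series that sampled the cells at 24 h and 96 h. SUDHL6 is an established line of human diffuse large B-cell lymphoma, of the germinal centre class. Of the 12 libraries of the series, 6 were used for the 96 h comparison: 3 from cells given 200 nM GSK591 for 96 h and 3 from cells given vehicle, 0.01% DMSO, for the same time. All cells were of this 1 line and were grown in the same medium. The labels do not say whether the 3 samples of a group were separate cultures, so p-values weigh effects only against the spread among these samples, and that spread may be technical. Genes entered the comparison when they reached at least 1 CPM (counts scaled to the total of their library) in 3 or more of the 6 libraries, and 11702 of the 23368 gene symbols did so.

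PRMT5 is an arginine methyltransferase that places symmetric dimethyl marks on histones and on many RNA-binding proteins. It works as a complex with WDR77, and the adaptor CLNS1A (pICln) brings it the Sm proteins, whose methylation aids their assembly into the small nuclear ribonucleoproteins of the spliceosome. In germinal centre B cells the repressor BCL6 holds a programme of rapid division and blocks exit towards the plasma cell, and the series title links PRMT5 to BCL6. The comparison asks which transcripts stand above or below vehicle after a prolonged exposure to the inhibitor.

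Sequencing depth was uneven. Vehicle replicate 1 held 547893015 counts, 10.6 times the median of the other 5 libraries, which held 48477456 to 64363186, so levels are given as CPM after TMM scaling (factors 0.985 to 1.013). No pair of replicates agreed within sampling noise (chi-square per degree of freedom 3.62 to 48.5), and all were kept. Replicate 2 of vehicle and replicate 2 of GSK591 were the odd ones of their groups: across genes, log2 CPM of vehicle replicates 1 and 3 correlated at r = 0.9994 but with replicate 2 at 0.9972 and 0.9968, and treated replicates 1 and 3 at 0.9984 but with replicate 2 at 0.9929 and 0.994. These are correlations across genes, which are not independent replicates. Counts are therefore also given below without both libraries numbered 2, for several lists, among them each whose more frequent direction of call moved by over 1.5 times. All 6 markers of B cells and all 6 of germinal centre B cells reached 1 CPM. The 6 germinal centre markers summed to 1040 to 1090 CPM in vehicle and 1330 to 1420 CPM in treated libraries. Within that sum MYBL1 went from a mean of 94.9 to 219 CPM and BCL6 from 472 to 539 CPM. MME was not called, and the calls of BCL6, LMO2 and S1PR2 were lost in some fits that left out 1 library. Every marker of T cells, NK cells, epithelium, endothelium and erythroid cells was under 1 CPM in every library, and of the myeloid and fibroblast markers only CD14 and COL1A1 reached 1 CPM in any. In these bulk samples, fewer cells of a kind and less RNA per cell cannot be told apart.

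The response was broad and mostly shallow. By edgeR's quasi-likelihood test with Benjamini-Hochberg adjustment over all genes and a threshold of 0.05, 5057 genes were called, which is 43.2% of those tested. Of these, 2476 rose (21.2% of the genes tested) and 2581 fell (22.1%). The median rise was 0.39 and the median fall -0.38 on the log2 scale, and 1954 of the called genes (38.6%) changed by less than 1.25-fold. Changes of 2-fold or more numbered 159 upwards and 86 downwards, and 100 of those rises and 46 of those falls were in the 1683 genes with an average log2 CPM under 2. The median of all genes tested was -0.01, and other scalings moved it by 0.023 at most. In 4983 of the called genes (98.5%) the 3 treated values were all above or all below the 3 vehicle values, but this was also so in 1710 genes that were not called.

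**Figure D1:**
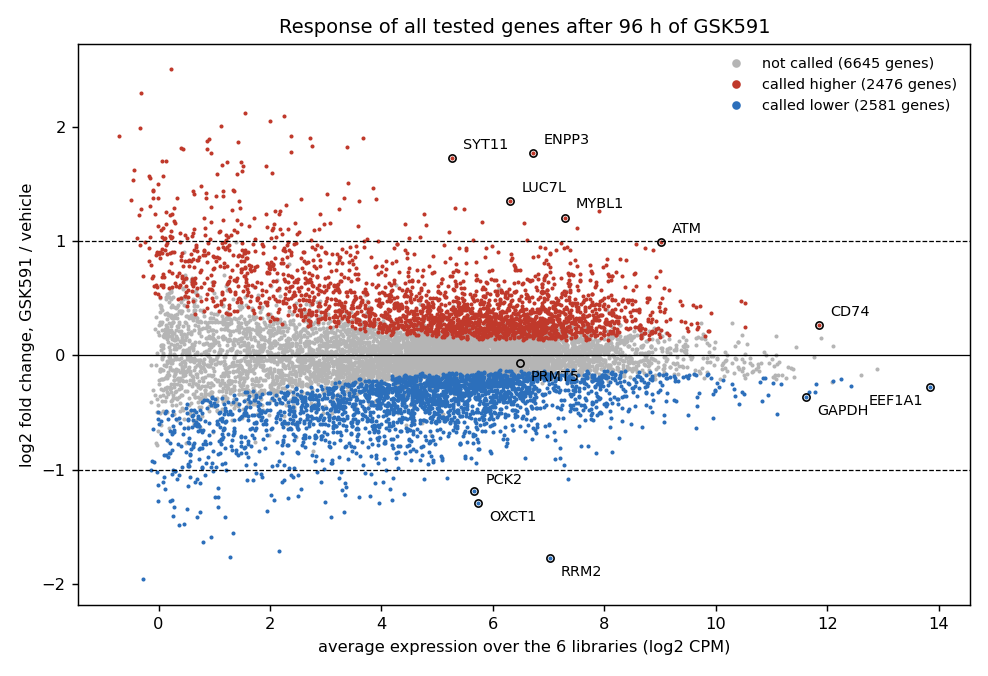
Each point is 1 of the 11702 genes tested, with its average expression over the 6 libraries (log2 CPM) on the horizontal axis and its log2 fold change of GSK591 over vehicle on the vertical axis; red and blue mark genes called higher (2476) and lower (2581), and dashed lines mark 2-fold. Most called genes lie within 2-fold, ENPP3 and SYT11 stand out upwards at 1.77 and 1.73, RRM2 stands out downwards at -1.77, and PRMT5 lies near 0.

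Calls were tested by leaving out each library in turn. A call is said below to hold where it stayed past the threshold in all 6 of these fits. Ranges of adjusted p over the alternatives, given below for some genes, also take in the fit without both libraries numbered 2. That fit was chosen after the data were seen, and it gave the low end of each such range except that of BCL6. Counts of 1 to 4 calls in a list can move by more than 1.5 times through a single gene, and for them the number that held is the firmer value. The counts of every list are to be read beside the 21.2% of all genes tested that were called higher and the 22.1% called lower. Without vehicle replicate 2 or GSK591 replicate 1 the count of called genes was 3300 and 3288, without GSK591 replicate 2 it was 6891, and without both libraries numbered 2 it was 7511. Without vehicle replicate 2, GSK591 replicate 1 and GSK591 replicate 3 there were 1508, 1492 and 1608 falls, against 1792, 1796 and 1855 rises. Without vehicle replicates 1 and 3 the sides were close, at 1833 and 1860 falls and 1837 and 1817 rises. The 86 falls of 2-fold or more became 51 without vehicle replicate 2, 48 without GSK591 replicate 1 and 200 without GSK591 replicate 2. The filter shaped few of the genes. All 6 libraries reached 1 CPM in 11206 of those tested, whereas 85 genes were under 1 CPM in every vehicle library and 48 in every treated one. Such genes passed through 1 group only and had to differ, and 77 of the 85 were called higher and 42 of the 48 lower. At the edge, RHEBL1 and RDH5 entered with a third-highest value of 1 CPM, and NFAM1 and FKBP1B stayed out with 0.998 and 0.997 CPM.

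The RNA of the drug target itself was not called. PRMT5 stood at 91.9, 95.8 and 86.7 CPM in vehicle replicates 1 to 3 and at 89.0, 86.4 and 87.5 CPM in treated replicates 1 to 3. The groups overlapped, with a log2 fold change of -0.06 ± 0.05 (SE; adjusted p = 0.365 in edgeR's quasi-likelihood test). GSK591 acts on the enzyme, so this level does not check the labels.

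Both partners of PRMT5 in the Sm branch fell. WDR77 went from 122, 127 and 120 CPM in vehicle to 91.9, 102 and 91.5 CPM in treated libraries (log2 fold change -0.37 ± 0.06, adjusted p = 0.00251 in edgeR's test). The adaptor CLNS1A stood at 83.9, 94.6 and 82.9 CPM in vehicle and 61.0, 70.3 and 65.6 CPM after treatment (-0.41 ± 0.07, adjusted p = 0.00372 in edgeR's test). In both genes every treated library lay below every vehicle library. The cytoplasmic adaptor RIOK1, which competes with CLNS1A for PRMT5, was at 0.02 and was not called. Both falls held without any 1 library.

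Among 7 other arginine methyltransferases tested, 3 fell and none rose. PRMT1, which makes most asymmetric dimethylarginine in cells, stood at 262, 264 and 262 CPM in vehicle and 189, 209 and 202 CPM in treated libraries (-0.39 ± 0.05, adjusted p = 0.00158 in edgeR's test). PRMT6 and PRMT10 fell by 0.30 and 0.29. The 3 falls held without any 1 library, and without GSK591 replicate 2 the count was 5. PRMT2, PRMT3, PRMT7 and CARM1 were not called, with values between -0.14 and 0.14.

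Most DNA replication genes fell. Of 44 genes of the replication machinery, from origin recognition to the polymerases, 33 fell and 4 rose, with a median log2 fold change of -0.51 beside -0.01 for all genes. The same list had 37 falls and 4 rises without both libraries numbered 2, and 25 of the 33 falls held without any 1 library. Every replicative helicase (MCM2 to MCM7) subunit fell, from -0.30 in MCM7 to -0.85 in MCM4, as did GINS1 to GINS4 and CDC45, the helicase's activators. Among these subunits the calls of MCM7, GINS1 and GINS3 did not hold.

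CDC45 dropped furthest in this list. Its vehicle values were 23.7, 29.5 and 23.8 CPM and its treated values 7.87, 14.8 and 9.19 CPM (-1.26 ± 0.21, adjusted p = 0.00288 in edgeR's test). The sliding clamp PCNA stood at 173, 213 and 175 CPM in vehicle and 91.8, 124 and 104 CPM in treated libraries (-0.81 ± 0.12, adjusted p = 0.00197 in edgeR's test). The loading factors CDC6 and CDT1 fell by 0.94 and 0.74. POLA2, the second subunit of DNA polymerase alpha, had the smallest p of the falls in the list: 61.5, 69.7 and 57.7 CPM in vehicle against 31.6, 36.3 and 33.3 CPM after treatment (-0.90 ± 0.08, adjusted p = 0.000457 in edgeR's test). In all of these the groups were apart, and in each the library numbered 2 was the highest of its group.

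The 4 genes that rose were ORC2, ORC5, RFC1 and POLE. ORC2, a subunit of the origin recognition complex, rose from 61.7, 62.9 and 59.2 CPM to 76.4, 80.2 and 74.8 CPM (0.33 ± 0.05, adjusted p = 0.00239 in edgeR's test). RFC1, the large subunit of the clamp loader, rose by 0.34 while RFC2 and RFC5 fell by 0.67 each. The calls of ORC5 (adjusted p = 0.0515, 0.0692, 0.0695, 0.0639 and 0.0731 without each library other than GSK591 replicate 2) and of POLE (adjusted p = 0.0668 and 0.0713 without vehicle replicate 1 and 3) did not hold, which left 2 rises without either of those vehicle libraries. The single-stranded DNA binders RPA1 and RPA2 were at -0.06 each and were not called.

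The promoters of these genes are shown because the members moved together and because the short words they hold differ from those of the mitotic genes described next. RefSeq promoter windows of GRCh38.p14, from 250 bases before to 50 after each start, matched 9200 of the 11702 genes tested. They were searched on both strands for the E2F words TTTGGCGC, TTTCCCGC, TTTGCCGC and TTTCGCGC, which may overlap one another, and for TTTGAA, the core of the cell cycle homology region. An E2F word stood in 21 of 38 replication promoters (55.3%), in 6.93% of the promoters of tested genes and in 3.99% of the 27305 genes of the table. The called-lower members with a word before the start and the smallest p are given below, with the word in capitals, 5′ to 3′ on the strand of the gene.
POLA2, chr11:65261864-65261961, plus strand: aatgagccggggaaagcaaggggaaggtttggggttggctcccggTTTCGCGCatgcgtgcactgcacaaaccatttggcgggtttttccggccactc
GINS2, chr16:85688955-85689030, minus strand: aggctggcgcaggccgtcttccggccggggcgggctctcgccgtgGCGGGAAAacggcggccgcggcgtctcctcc
POLA1, chrX:24693736-24693833, plus strand: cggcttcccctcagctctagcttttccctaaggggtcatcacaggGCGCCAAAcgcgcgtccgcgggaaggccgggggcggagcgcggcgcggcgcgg
MCM3, chr6:52284864-52284961, minus strand: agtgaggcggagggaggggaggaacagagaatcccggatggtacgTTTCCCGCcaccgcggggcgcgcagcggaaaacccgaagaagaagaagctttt

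The words in POLA2 and MCM3 read forwards, and those in GINS2 and POLA1 are on the opposite strand. POLA1, the catalytic subunit of polymerase alpha, went from 64.6, 74.4 and 64.1 CPM to 36.3, 42.9 and 35.9 CPM, GINS2 from 65.6, 74.0 and 65.1 CPM to 40.3, 45.6 and 43.3 CPM, and MCM3 from 623, 710 and 611 CPM to 402, 472 and 423 CPM. Of the 21 replication genes with a word 18 fell (median -0.57), and of the 17 without one 10 fell (median -0.33). Over all tested genes with a promoter, 27.9% of the 638 with an E2F word fell and 21.7% of the 8562 without. A match is a description of the letters in this window and does not show that a factor binds there.

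Mitotic genes fell less and less evenly. In the list of 39 genes for G2 phase and mitosis there were 23 falls and no rise, with a median of -0.27. Only 9 of the 23 falls held: 11 genes were called lower without vehicle replicate 2, 9 without GSK591 replicate 1 and 9 without GSK591 replicate 3, but 31 without both libraries numbered 2. KIF20A, a kinesin of cytokinesis, stood at 62.2, 77.4 and 60.7 CPM in vehicle and 34.8, 46.5 and 37.2 CPM in treated libraries (-0.76 ± 0.13, adjusted p = 0.00296 in edgeR's test). The kinase CDK1 dropped from 140, 180 and 142 CPM to 91.2, 117 and 97.8 CPM (-0.60 ± 0.12), and its S and G2 phase partner CCNA2 by 0.69. Its mitotic partner CCNB1 was not called: 149, 167 and 148 CPM in vehicle and 152, 142 and 152 CPM after treatment (-0.06 ± 0.06). The spindle kinases AURKA (0.00) and TTK (0.07) were not called either, so the members of the list parted.

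TTTGAA stood in 22 of 32 mitotic promoters (68.8%) and in none of the 38 replication promoters, against 13.5% of the promoters of tested genes and 18.2% of all genes in the table. E2F words were in 2 of the 32. The 4 called-lower members with the smallest p that carry it before the start are given in the same way, with TTTGAA or its reverse complement in capitals.
CENPA, chr2:26785993-26786055, plus strand: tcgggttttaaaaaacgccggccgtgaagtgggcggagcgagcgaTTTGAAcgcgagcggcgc
CDK1, chr10:60778125-60778220, plus strand: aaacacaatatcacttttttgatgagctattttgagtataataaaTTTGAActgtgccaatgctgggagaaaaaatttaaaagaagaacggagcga
KIF4A, chrX:70290025-70290103, plus strand: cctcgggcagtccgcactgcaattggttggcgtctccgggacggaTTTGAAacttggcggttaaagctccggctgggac
TOP2A, chr17:40417997-40418135, minus strand: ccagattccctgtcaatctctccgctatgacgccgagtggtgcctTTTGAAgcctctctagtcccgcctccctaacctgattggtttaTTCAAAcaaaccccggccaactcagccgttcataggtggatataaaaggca

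Within the mitotic list the calls did not follow the word: 14 of the 22 genes with it fell (median -0.27) and 6 of the 10 without it (median -0.31). CENPA, the centromeric histone, fell by 0.49, the chromokinesin KIF4A by 0.40 and topoisomerase TOP2A by 0.45. Over all tested genes with a promoter, 24.6% of those with TTTGAA fell and 21.8% of those without. CCAAT, searched in the same way, was in 65.8% of replication and 78.1% of mitotic promoters, against 44.0% for tested genes.

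Genes for the supply of DNA precursors fell with those of replication. Of 31 genes of nucleotide supply 18 fell and 2 rose (median -0.34), 17 of the falls held, and without both libraries numbered 2 the counts were 20 and 3. RRM2, the small subunit of ribonucleotide reductase, was the largest fall of all genes ranked here: 182, 241 and 183 CPM in vehicle and 43.2, 80.8 and 52.6 CPM in treated libraries, a fold of 0.293 (log2 fold change -1.77 ± 0.22, adjusted p = 0.00105 in edgeR's test). The highest treated library was still well below the lowest vehicle library. Thymidylate synthase TYMS went from 17.7, 22.2 and 18.0 CPM to 6.20, 10.8 and 7.36 CPM (-1.23 ± 0.19, adjusted p = 0.0023 in edgeR's test). Thymidine kinase TK1 fell by 0.85, and the one-carbon enzymes SHMT1, SHMT2, MTHFD1 and MTHFD1L by 0.47 to 0.53.

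The 2 rises in this list were RRM2B and SAMHD1. RRM2B, the p53-inducible form of the small subunit, rose from 175, 172 and 173 CPM to 255, 206 and 231 CPM (0.41 ± 0.08, adjusted p = 0.0042 in edgeR's test). SAMHD1, which breaks down deoxynucleotides, rose by 0.51, a call lost without vehicle replicate 2 or GSK591 replicate 1 or 3 (adjusted p = 0.0749, 0.0594 and 0.0685).

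Genes that govern entry into S phase fell more often than they rose. Among 28 genes of G1 control 13 fell and 4 rose (median -0.16), 11 of the falls held and none of the rises did. The E cyclins and their activating phosphatase fell: CCNE2 from 33.5, 42.5 and 34.6 CPM to 14.6, 21.2 and 16.3 CPM (-1.08 ± 0.14), CCNE1 by 0.78 and CDC25A by 0.84. E2F7, a repressor that E2F itself induces, stood at 12.6, 17.7 and 13.1 CPM in vehicle and 3.38, 8.31 and 4.84 CPM in treated libraries (-1.37 ± 0.28, adjusted p = 0.0064 in edgeR's test), and E2F8 and E2F2 fell by 0.77 and 0.89. The activator E2F1 itself was at -0.11 and was not called. CDKN1A, the inhibitor p21, fell from 45.8, 44.1 and 44.9 CPM to 27.2, 33.1 and 29.3 CPM (-0.59 ± 0.08, adjusted p = 0.00128 in edgeR's test).

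The 4 rises were CCND1, CCND2, RB1 and E2F5. CCND2, a D-type cyclin, was at 1.37, 0.902 and 1.19 CPM in vehicle and 2.11, 1.64 and 2.00 CPM in treated libraries (0.67 ± 0.18, adjusted p = 0.0194 in edgeR's test, with a range of 0.00118 to 0.0648 over the alternatives). Its call was lost without vehicle replicate 3 or GSK591 replicate 1 or 3 (adjusted p = 0.0518, 0.0648 and 0.0635). The count of rises in the list was 2, 2 and 0 without vehicle replicates 1, 2 and 3, and 0 without GSK591 replicate 1 or 3.

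Genes of repair by homologous recombination fell with those of replication, whereas the kinases that signal damage parted. Of 29 genes of homologous recombination and Fanconi repair 17 fell and none rose (median -0.39). FANCI went from 180, 216 and 177 CPM to 93.7, 118 and 96.1 CPM (-0.90 ± 0.11, adjusted p = 0.00104 in edgeR's test) and its partner FANCD2 fell by 0.64. BRCA2 was not called, with 41.4, 43.0 and 43.4 CPM in vehicle and 51.5, 60.4 and 41.8 CPM after treatment. Of the 17 falls 11 held, with 11 genes called without vehicle replicate 2, without GSK591 replicate 1 or without GSK591 replicate 3, and 23 without both libraries numbered 2.

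In damage signalling 6 of 20 genes rose and 6 fell, with a median of -0.03. ATM, the kinase that answers double-strand breaks, rose from 368, 304 and 366 CPM to 701, 803 and 565 CPM, a fold of 1.99 (log2 fold change 1.0 ± 0.13, adjusted p = 0.00127 in edgeR's test). Here the treated library numbered 2 was the highest rather than the one nearest to vehicle. ATR, RAD17 and the clamp subunit HUS1 rose by 0.34, 0.32 and 0.44, while the effector kinases CHEK1 and CHEK2 fell by 0.36 and 0.54 and the histone variant H2AFX by 0.54. Members of 1 pathway thus moved in opposite directions.

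Replication-dependent histone transcripts went the other way from the replication genes. These messages end in a stem-loop and mostly lack the poly(A) tail on which the libraries were selected, and the genes are near-identical copies, so their values are uncertain. Of 33 listed genes 12 were tested, 6 rose and none fell, with a median of 0.53. HIST1H2BK stood at 35.1, 28.3 and 36.4 CPM in vehicle and 65.4, 45.9 and 64.0 CPM in treated libraries (0.81 ± 0.14, adjusted p = 0.00358 in edgeR's test), and HIST1H3H rose by 0.81 ± 0.12. Of the 6 rises 4 held.

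Ranking all genes by size, among those with a mean of at least 5 CPM in the lower group and groups that do not overlap, gave 10 rises and 10 falls. ENPP3, an ectonucleotidase of the cell surface, stood at 52.2, 39.6 and 50.7 CPM in vehicle and 190, 134 and 165 CPM in treated libraries, a fold of 3.42 (log2 fold change 1.77 ± 0.14, adjusted p = 0.000375 in edgeR's test). SPOCK2, an extracellular matrix proteoglycan, went from 6.54, 3.31 and 6.14 CPM to 27.9, 9.29 and 24.2 CPM (1.90 ± 0.39, adjusted p = 0.00629). SYT11, a synaptotagmin of vesicle traffic, went from 21.5, 12.5 and 19.4 CPM to 82.0, 31.8 and 65.5 CPM (1.73 ± 0.32, adjusted p = 0.00452). In all 3 genes the library numbered 2 was the lowest of its group in both arms, and the groups were still apart.

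The other ranked rises were AHNAK2, a large scaffold protein (1.51 ± 0.28), CABP4, a calcium-binding protein (1.47 ± 0.13), the kinase CDK18 (1.38 ± 0.18), the adhesion molecule CHL1 (1.38 ± 0.30), the matrix protein PRELP (1.36 ± 0.25), LUC7L (1.35 ± 0.07) and TTYH3, a tweety-family membrane protein (1.29 ± 0.35). CABP4 was the exception to the pattern of the libraries numbered 2, with 20, 24.0 and 19.8 CPM in treated libraries against 8.19, 6.22 and 8.55 CPM in vehicle. TTYH3 (adjusted p = 0.019 in edgeR's test, with a range of 5.29e-09 to 0.0747 over the alternatives) lost its call without vehicle replicate 2 or GSK591 replicate 1 or 3 (adjusted p = 0.0747, 0.0668 and 0.0657). Its lowest treated value, 28.8 CPM, barely cleared the highest vehicle value, 28.7 CPM.

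Besides RRM2, E2F7, CDC45 and TYMS, the ranked falls included metabolic and secretory genes. OXCT1, which activates ketone bodies for use in mitochondria, went from 69.1, 85.9 and 71.3 CPM to 25.4, 38.4 and 28.2 CPM (-1.30 ± 0.15, adjusted p = 0.000892 in edgeR's test). PCK2, the mitochondrial form of phosphoenolpyruvate carboxykinase, went from 65.3, 79.2 and 67.2 CPM to 25.1, 39.3 and 27.9 CPM (-1.19 ± 0.16, adjusted p = 0.00137). HSD17B8, which serves fatty acid synthesis in mitochondria, changed by -1.30 ± 0.19 and SLC25A10, the mitochondrial dicarboxylate carrier, by -1.22 ± 0.12. XBP1 is described with the plasma cell genes. In each of these falls the treated library numbered 2 was the highest of the 3.

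**Figure D2:**
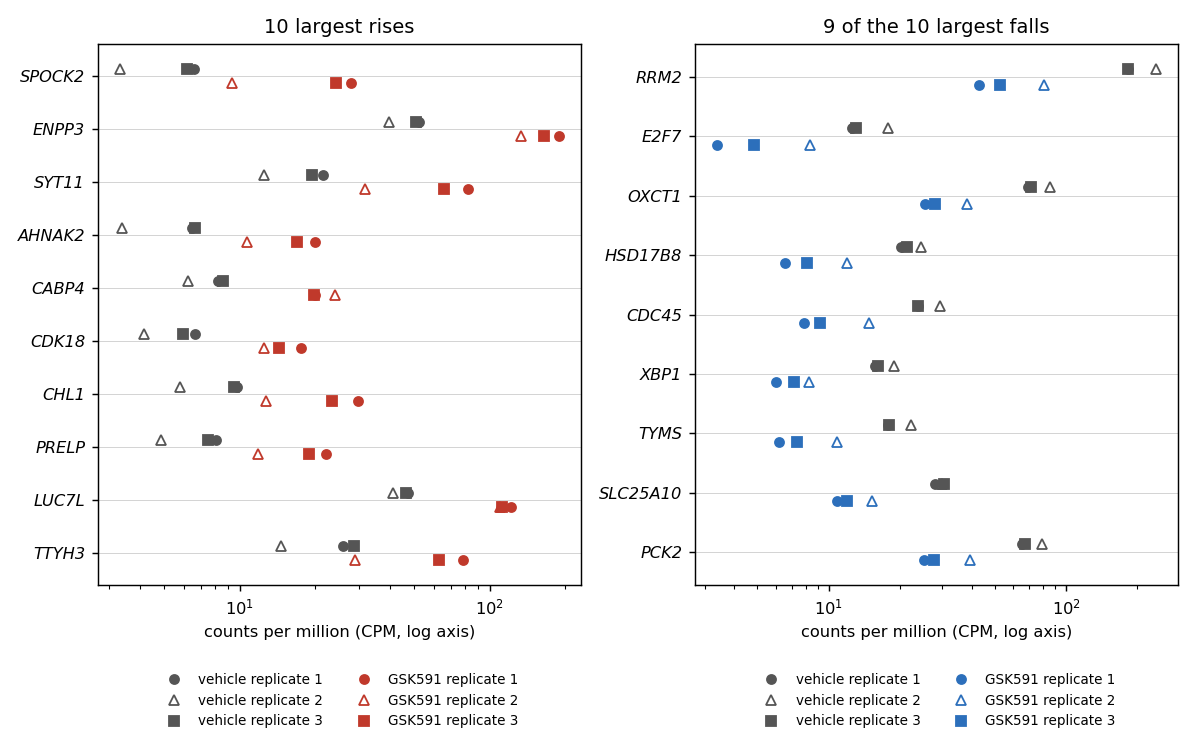
CPM (log axis) of the 10 largest rises and 9 of the 10 largest falls in each library; grey symbols are vehicle, red and blue symbols GSK591, and open triangles the libraries numbered 2. The groups are apart in every gene shown by the rule that chose them, and for RRM2 the treated libraries sit at 43.2 to 80.8 CPM against 182 to 241 CPM in vehicle.

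A few genes crossed from near silence. The rule was under 1 CPM in every vehicle library and at least 2 CPM in every treated one, or the other way round. Among called genes outside the symbol types left out above, 4 came on and 2 went off by this rule. CRABP2, a retinoic acid carrier, went from 0.963, 0.765 and 0.737 CPM to 3.50, 2.98 and 3.15 CPM (1.90 ± 0.15), and DCAF4L1, MYO1H and RNF112 reached treated means of 3.12, 2.45 and 2.26 CPM. RFX2, a transcription factor, went from 2.14, 2.96 and 2.48 CPM to 0.596, 0.951 and 0.815 CPM (-1.64 ± 0.20), and the protease inhibitor SPINK2 from a mean of 2.20 to 0.813 CPM. These 6 passed the filter through 1 group only and had to differ, so they are given as a description. All 6 stayed near the limit of the filter.

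In absolute level the largest rises were in CD74, PTPRC, NCOA3, ATM and ZNF107. CD74, the invariant chain of class II antigen presentation, added most, from 3457, 3163 and 3474 CPM to 4163, 3562 and 4417 CPM (0.27 ± 0.09, adjusted p = 0.0346 in edgeR's test, with a range of 0.000414 to 0.112 over the alternatives). Its call was lost with no filter on low counts (adjusted p = 0.0616) and without each library other than GSK591 replicate 2 (adjusted p = 0.0669 to 0.112). PTPRC (CD45), the phosphatase that sets the threshold of antigen receptor signalling, went from 1254, 1202 and 1258 CPM to 1843, 1543 and 1724 CPM (0.46 ± 0.07, adjusted p = 0.00242). The coactivator NCOA3 and the zinc finger gene ZNF107 rose by 0.48 and 0.94.

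The largest absolute falls were in EEF1A1, RPS6, GAPDH, RPL3 and TUBB, all abundant genes of translation, glycolysis and the cytoskeleton. GAPDH went from 3503, 3691 and 3399 CPM to 2656, 2756 and 2825 CPM (-0.36 ± 0.06, adjusted p = 0.00258 in edgeR's test). TUBB, a beta-tubulin, fell by 0.51. The elongation factor EEF1A1, the most abundant transcript in every library with 1.26% to 1.72% of the counts, fell by 0.28 (adjusted p = 0.0171), a call lost without GSK591 replicate 1 or 3 (adjusted p = 0.0732 and 0.0517). The calls of the ribosomal protein genes RPS6 (-0.26; adjusted p = 0.107, 0.122 and 0.0774) and RPL3 (-0.32; adjusted p = 0.122, 0.104 and 0.0925) were lost without vehicle replicate 2 or GSK591 replicate 1 or 3, and that of RPL3 also without vehicle replicate 3 (adjusted p = 0.0545).

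The 5 smallest p-values belonged to genes with tight replicates and rises near 2-fold. LUC7L was at 47.0, 41.2 and 46.2 CPM in vehicle and 122, 110 and 112 CPM in treated libraries. The ubiquitin ligase RNF216 went from 110, 108 and 112 CPM to 208, 224 and 205 CPM (0.95 ± 0.05), and SLC41A1, a magnesium transporter, from 100, 98.2 and 101 CPM to 208, 185 and 198 CPM (0.98 ± 0.06). With PRPF3 and MYBL1 these 5 had adjusted p of 0.000146 to 0.000205 in edgeR's test. The groups were apart in all 5, and in RNF216 and MYBL1 the treated library numbered 2 was the highest.

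Splicing genes did not move as 1 block. Of 29 tested Sm, LSm and SMN assembly proteins, some of which PRMT5 methylates, 17 fell and 2 rose, with a median of -0.21. SNRPF went from 51.1, 60.2 and 50.3 CPM to 31.1, 39.8 and 36.6 CPM (-0.58 ± 0.10, adjusted p = 0.00354 in edgeR's test). The other 6 members of the Sm ring that were tested, SNRPB, SNRPD1, SNRPD2, SNRPD3, SNRPE and SNRPG, fell by 0.19 to 0.40, but of these calls only those of SNRPD1 and SNRPG held. SNRPA of the U1 particle fell by 0.46, LSM7 by 0.49 and the SMN complex member GEMIN5 by 0.39, while LSM10 of the histone-processing U7 particle rose by 0.24. Of the 17 falls 10 held; 10 genes were called lower without vehicle replicate 2 and 10 without GSK591 replicate 1.

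The kinases and partners that act on splicing factors rose or were not called. Among 12 splicing kinases and LUC7-like proteins 6 rose and none fell (median 0.23), and 5 of the rises held. LUC7L, a U1-associated factor that helps choose the 5′ splice site, rose by 1.35 ± 0.07 (adjusted p = 0.000146 in edgeR's test), whereas its relatives LUC7L2 and LUC7L3 were at 0.05 and -0.03 and were not called. The nuclear kinase PRPF4B went from 360, 343 and 351 CPM to 561, 530 and 515 CPM (0.61 ± 0.05). CLK1 and CLK4, which phosphorylate SR proteins, rose by 0.53 and 0.47, but CLK2, CLK3, SRPK1 and SRPK2 were not called.

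SR proteins themselves divided, with 8 of 19 higher and 3 lower (median 0.05). SREK1, a regulator related to the SR family, went from 133, 120 and 130 CPM to 242, 224 and 217 CPM (0.83 ± 0.06, adjusted p = 0.00037 in edgeR's test). SRSF11, TRA2A, SRSF4, SRSF6, SRSF8, SON and SRRM1 rose by 0.21 to 0.31, and SRSF1, SRSF3 and ARGLU1 fell by 0.17 to 0.24. Of these calls 5 rises held and no fall did: without vehicle replicate 1 there were 5 rises, and 1 fall was left without vehicle replicate 1 or 2 or GSK591 replicate 1 or 3.

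In the spliceosome core 9 of 33 genes rose and 5 fell (median 0.06), and 7 and 3 of them held. The rises and falls are 27.3% and 15.2% of this list, beside 21.2% and 22.1% of all genes tested. Without both libraries numbered 2 the counts were 17 and 7, and 3 falls were left without vehicle replicate 1 or 2 or GSK591 replicate 1. PRPF3, a U4/U6 protein, went from 55.9, 58.2 and 54.3 CPM to 106, 102 and 103 CPM (0.89 ± 0.05, adjusted p = 0.000146 in edgeR's test). SMNDC1, which shares the Tudor domain of SMN, DDX23, PRPF39 and the branch point factor SF3B1 rose by 0.66, 0.65, 0.64 and 0.45, while the U5 proteins EFTUD2 and SNRNP40 fell by 0.23 and 0.29. Of 24 genes of nonsense-mediated decay and nuclear RNA surveillance 4 rose and 4 fell (median 0.00). Each is 16.7% of the list, below the shares of all genes tested (21.2% higher, 22.1% lower). The exosome nuclease DIS3 was up by 0.42 and SMG9 down by 0.43. In that list the rises numbered 2 without vehicle replicate 1, vehicle replicate 3 or GSK591 replicate 1.

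Germinal centre transcription factors rose or were not called, with 1 exception. Of 20 tested, 11 rose and 1 fell, with a median of 0.20. MYBL1, a Myb-family factor typical of germinal centre B cells, went from 94.0, 96.6 and 93.9 CPM to 212, 244 and 202 CPM, a fold of 2.31 (log2 fold change 1.21 ± 0.07, adjusted p = 0.000205 in edgeR's test). BACH2, which restrains plasma cell differentiation, went from 183, 173 and 189 CPM to 279, 291 and 258 CPM (0.60 ± 0.06), and IKZF3 and SPI1 rose by 0.52 and 0.39.

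BCL6 itself rose slightly, from 479, 466 and 471 CPM to 553, 519 and 545 CPM (0.19 ± 0.05, adjusted p = 0.0169 in edgeR's test, with a range of 9.27e-05 to 0.0643 over the alternatives). The groups were apart, but its call failed without vehicle replicate 1 or 3 (adjusted p = 0.0605 and 0.0643) and with no filter on low counts (0.0606). The 1 fall, SPIB (-0.19), was lost without any of the 6 libraries (adjusted p = 0.0508 to 0.156). EBF1, FOXO1 and BCL11A were not called, with values of -0.04, 0.04 and 0.09. Of the 11 rises 4 held, and the list had 5 and 7 without vehicle replicates 1 and 3, and 7 and 6 without GSK591 replicates 1 and 3.

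Plasma cell factors and secretion genes fell or were not called for the most part. Of 17 tested, 7 fell and 2 rose (median -0.21), and 4 of the falls held, with 4 genes called lower without vehicle replicate 2. XBP1, which expands the secretory apparatus, went from 15.7, 18.9 and 16.2 CPM to 5.98, 8.24 and 7.14 CPM (-1.24 ± 0.13, adjusted p = 0.000614 in edgeR's test). IRF4, a regulator that plasma cells need, went from 57.8, 66.3 and 59.9 CPM to 44.8, 43.3 and 44.2 CPM (-0.47 ± 0.06), and FKBP11, a secretory folding factor, fell by 0.70. HERPUD1 and DNAJB9, both of the unfolded protein response, rose by 0.35 and 0.30, and neither call held. The summed level of the 6 plasma cell markers was 154 to 172 CPM in vehicle and 107 to 128 CPM in treated libraries, with SDC1 and PRDM1 under 1 CPM in every library.

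Antigen receptor signalling genes were called higher more often than lower. Of 30 tested genes of the B-cell receptor and its proximal signalling 15 rose and 1 fell (median 0.20), 11 of the rises held, and without both libraries numbered 2 the counts were 19 and 2. TXK, a TEC-family kinase better known from T cells, went from 4.86, 3.49 and 5.61 CPM to 20.4, 15.2 and 14.4 CPM, a fold of 3.56 (log2 fold change 1.83 ± 0.18, adjusted p = 0.000582 in edgeR's test). LCK, another kinase better known from T cells, went from 118, 108 and 121 CPM to 303, 182 and 267 CPM (1.12 ± 0.16, adjusted p = 0.0019 in edgeR's test). The 7 T-cell markers summed to 0.098 to 0.218 CPM in vehicle and 0.219 to 0.399 CPM in treated libraries, with CD3D, CD2 and TRAT1 at 0 in every library.

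The B-cell kinases BLK and LYN rose by 0.56 and 0.49, and CD72, a B-cell coreceptor, by 0.69. The fall was in CD22, an inhibitory coreceptor, from 1161, 1085 and 1137 CPM to 904, 1030 and 922 CPM (-0.24 ± 0.07, adjusted p = 0.0173 in edgeR's test, with a range of 2.98e-05 to 0.0788 over the alternatives). That call was lost without vehicle replicate 1 or 3 or GSK591 replicate 1 or 3 (adjusted p = 0.0713, 0.0582, 0.0788 and 0.0751). The receptor chains CD79A and CD79B (0.09 and 0.18) and the kinase BTK (0.08) were not called.

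Surface antigens, homing receptors and NF-kB genes each had more rises than falls, and of the rises 5 of 9, 2 of 5 and 4 of 8 held. Among 28 B-cell surface antigens 9 rose and 3 fell (median 0.14), and the rises numbered 5 without vehicle replicate 1, vehicle replicate 3 or GSK591 replicate 3. ITGB2, the integrin chain of LFA-1, went from 14.3, 12.9 and 13.9 CPM to 20, 18.0 and 21.3 CPM (0.53 ± 0.08), and TNFRSF13B (TACI) fell by 0.50. Of 14 chemotaxis and confinement receptors 5 rose and 1 fell (median 0.18), and 2 rises were left without vehicle replicate 2 or GSK591 replicate 1 or 3. CXCR5, which guides B cells into follicles, rose by 0.31 and RGS16, a brake on chemokine receptors, fell by 0.84 from 24.0, 26.2 and 25.4 CPM to 12.1, 16.6 and 13.3 CPM.

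In the NF-kB pathway 8 of 23 genes rose and 1 fell (median 0.07). NFKBID, an atypical nuclear inhibitor protein of the family, went from 35.3, 29.2 and 35.1 CPM to 72.1, 60.7 and 68.6 CPM, a fold of 2.02 (log2 fold change 1.01 ± 0.09, adjusted p = 0.000457 in edgeR's test). The kinase IKBKB and its brake CYLD rose by 0.63 and 0.55. The Rel subunits RELA, REL, RELB, NFKB1 and the inhibitor NFKBIA were not called, between -0.07 and 0.07, and the small rise of NFKB2 (0.17) did not hold. The rises numbered 5, 4 and 5 without vehicle replicate 1, vehicle replicate 3 and GSK591 replicate 3.

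Genes of MHC class II rose more often than they fell, and class I genes were mixed. Of 16 genes of MHC class II and its regulators 10 rose and 1 fell (median 0.26), and of 16 class I genes 2 rose and 6 fell (median -0.10); the difference between the lists was not tested. HLA genes are near-identical copies, so their single values are uncertain. The peptide exchange factor HLA-DMB went from 402, 352 and 389 CPM to 681, 575 and 657 CPM (0.74 ± 0.08, adjusted p = 0.000684 in edgeR's test), and CIITA, the master coactivator of class II genes, from 89.4, 73.5 and 93.9 CPM to 123, 123 and 119 CPM (0.51 ± 0.09). RFXAP, a subunit of the factor that CIITA works with, fell by 0.58.

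On the class I side the immunoproteasome subunits PSMB8 and PSMB10 fell by 0.51 and 0.60, while the peptide transporter TAP1 rose by 0.34 and TAP2 fell by 0.34, the latter call lost without GSK591 replicate 1 or 3 (adjusted p = 0.0544 and 0.0524). Of the 10 class II rises 5 held, with 5 called without vehicle replicate 2 or GSK591 replicate 3. Both class I rises held, and of the 6 falls 2 held, with 3 called without GSK591 replicate 1 or 3.

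Interferon-stimulated and immediate early genes gave mixed pictures. The interferon list had 4 rises and 6 falls among 19 (median -0.08). Its rises are 21.1% of the list and its falls 31.6%, beside 21.2% and 22.1% of all genes tested. All 6 falls held and none of the rises did, with 2 rises left without vehicle replicate 1 or GSK591 replicate 1 or 3. STAT2, a signal transducer of the interferon receptor, was called higher at 0.39, a call lost without GSK591 replicate 1 (adjusted p = 0.0707 in edgeR's test). Of 23 immediate early genes 1 rose and 7 fell (median -0.09), with the phosphatase DUSP2 down by 0.61 from 73.9, 77.9 and 78.3 CPM to 43.8, 58.9 and 48.2 CPM. The falls in that list numbered 4 without vehicle replicate 2 or GSK591 replicate 1 or 3 and 3 without vehicle replicate 3. The 1 rise, BTG1 (0.44 ± 0.14), had overlapping groups and was lost without any 1 of the libraries other than GSK591 replicate 2 (adjusted p = 0.0565 to 0.126).

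Genes of the MYC network and ribosome biogenesis fell more often than they rose. Of 40 genes of the MYC network and ribosome biogenesis 21 fell and 6 rose (median -0.22), and 11 of the falls held, with 11, 12 and 12 called without vehicle replicate 2, GSK591 replicate 1 and GSK591 replicate 3. MYC went from 328, 379 and 337 CPM to 232, 287 and 257 CPM (-0.43 ± 0.09, adjusted p = 0.00634 in edgeR's test). The nucleolar methyltransferase FBL fell by 0.47. The MYC antagonists MXD1 and MXD4 rose by 0.55 and 0.53, the latter call lost without GSK591 replicate 3 (adjusted p = 0.0581). MXD3 fell by 0.64, a call lost without vehicle replicate 2 or 3 or GSK591 replicate 1 or 3 (adjusted p = 0.0577 to 0.0866). NOP2, a nucleolar RNA methyltransferase, rose from 193, 181 and 190 CPM to 356, 319 and 339 CPM (0.85 ± 0.06, adjusted p = 0.000311 in edgeR's test), against the direction of the list.

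Cytosolic ribosomal protein genes, which are also near-identical to many pseudogenes, had 13 falls and no rise among the 75 tested, with a median of -0.12. That is 17.3% of the list, below the 22.1% of all tested genes that were called lower. The falls ranged from -0.18 in RPS26 to -0.40 in RPL14, and 4 of the 13 held. This count moved with every library: it was 8, 4 and 7 without vehicle replicates 1, 2 and 3 and 4, 24 and 5 without GSK591 replicates 1, 2 and 3.

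Mitochondrial genes fell more often than they rose. Of 74 mitochondrial ribosomal protein genes 37 fell and 2 rose (median -0.18), and of 77 nuclear genes of the respiratory chain and ATP synthase 35 fell and none rose (median -0.16). MRPL21 went from 24.7, 26.7 and 25.3 CPM to 14.1, 15.9 and 14.3 CPM (-0.79 ± 0.07, adjusted p = 0.000457 in edgeR's test), and ATP5H, a peripheral stalk subunit, from 66.2, 70.9 and 65.9 CPM to 47.1, 46.7 and 49.7 CPM (-0.50 ± 0.05). The 2 rises were MRPS31 (0.35) and MRPS27, the latter from 269, 256 and 264 CPM to 447, 336 and 413 CPM (0.60 ± 0.10). In these 2 lists 21 and 14 of the falls held, with 22 and 15 called without vehicle replicate 2, 22 and 18 without GSK591 replicate 1 and, for the respiratory chain, 21 without vehicle replicate 1. The mitochondrially encoded transcripts had no tested member.

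In glycolysis and the TCA cycle 19 of 38 genes fell and 2 rose (median -0.18), and 10 of the falls held, with 12 called without vehicle replicate 1 or 2. FH, the fumarase, went from 94.0, 101 and 91.9 CPM to 67.0, 66.8 and 71.6 CPM (-0.48 ± 0.06, adjusted p = 0.000938 in edgeR's test). LDHA fell by 0.39 and PFKFB3, which makes the activator of phosphofructokinase, rose by 0.41. Sterol and fatty acid synthesis had 18 falls and 2 rises in 34 (median -0.16). DHCR7, the last step of cholesterol synthesis, fell by 0.38 and SCD and HMGCS1 by 0.43 each. The regulator SREBF2 was called higher at 0.14, and neither of the 2 rises held. Of the falls 9 held, with 9, 11, 10 and 9 called without vehicle replicate 2, vehicle replicate 3, GSK591 replicate 1 and GSK591 replicate 3.

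Most genes of amino acid supply under the integrated stress response fell. That pathway works through ATF4, which switches on amino acid synthesis, transport and charging genes when translation is restrained. Of 39 genes 24 fell and 1 rose (median -0.34), and 15 of the falls held. ATF3 went from 2.71, 3.90 and 3.21 CPM to 1.01, 1.46 and 1.11 CPM (-1.42 ± 0.19), the serine synthesis enzyme PSAT1 from 112, 147 and 112 CPM to 54.4, 82.6 and 61.5 CPM (-0.90 ± 0.16), and CBS and CTH of transsulfuration fell by 0.88 and 0.74. PPP1R15A (GADD34), which reverses the response, fell by 0.52 with tight replicates (71.4, 75.1 and 75.2 CPM against 50.8, 50.9 and 53.3 CPM).

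ATF4 itself was not called, at -0.17, nor was DDIT3 (CHOP), at -0.18. The 1 rise was SLC38A2, an amino acid transporter, from 209, 158 and 209 CPM to 448, 201 and 351 CPM (0.80 ± 0.25, adjusted p = 0.0313 in edgeR's test, with a range of 1.73e-07 to 0.122 over the alternatives). Its groups overlapped through the treated library numbered 2, and the low end of that range came from the fit without both libraries numbered 2. Its call failed without vehicle replicate 2 or 3 or GSK591 replicate 1 or 3 (adjusted p = 0.122, 0.0563, 0.0998 and 0.0915 in edgeR's test). Proteasome genes had 14 falls and 2 rises in 41 (median -0.11), led by the assembly chaperone PSMG1 (-0.59) and, upwards, PSMD6 (0.37). Of those falls 5 held, with 6, 5 and 6 called without vehicle replicate 1, vehicle replicate 2 and GSK591 replicate 1.

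Genes of cell death and p53 gave no single direction. Of 26 p53 targets 5 rose and 4 fell (median 0.02). That is 19.2% and 15.4% of the list, beside 21.2% and 22.1% of all genes tested. TP53INP1, an autophagy and death regulator, rose from 163, 101 and 156 CPM to 448, 209 and 356 CPM (1.27 ± 0.27, adjusted p = 0.00711 in edgeR's test), and MDM2 rose by 0.26, while CDKN1A, GADD45A and FDXR fell by 0.59, 0.57 and 0.71. The rises numbered 3 without vehicle replicate 1 and 12 without GSK591 replicate 2. In the BCL2 family 5 of 17 rose and 1 fell (median 0.08). The 5 were pro-death members, BAX, BIK, HRK, BCL2L11 (BIM), from 52.4, 51.5 and 52.6 CPM to 72.5, 63.3 and 66.4 CPM (0.37 ± 0.06), and BMF (0.43), and those of BAX, BIK and HRK did not hold. The survival member BCL2A1 fell by 0.89 at a low level, and BCL2 and MCL1 were at 0.01 and 0.10 and were not called. Of those 5 rises 2 held, with 2, 3, 3, 2 and 2 left without vehicle replicates 1, 2 and 3 and GSK591 replicates 1 and 3.

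Most enzymes that place or remove acetyl and methyl groups on histones rose. Of 44 tested 25 rose and 4 fell (median 0.24), 18 of the rises held, and without both libraries numbered 2 the counts were 28 and 7. HDAC7, a class IIa deacetylase of lymphocytes, went from 95.8, 87.3 and 102 CPM to 144, 139 and 138 CPM (0.56 ± 0.06, adjusted p = 0.000779 in edgeR's test). SETD2, which trimethylates lysine 36 of histone H3, rose by 0.70, and EP300 and CREBBP, the acetyltransferases that oppose BCL6 at germinal centre enhancers, by 0.32 and 0.30. KDM1A, KAT2A, KAT5 and WHSC1 fell by 0.25 to 0.38, of which the call of WHSC1 did not hold, and without GSK591 replicate 2 there were 7 falls. The Polycomb and DNA methylation list had 4 rises and 3 falls in 27 (median -0.01), with EZH2 and DNMT1 at -0.03 and -0.06, not called. The rises and falls are 14.8% and 11.1% of this list, below the 21.2% and 22.1% of all genes tested. Its falls numbered 1 without vehicle replicate 2 and 5 without GSK591 replicate 2, and UHRF1, which recruits DNMT1 to replicating DNA, fell by 0.48.

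Genes of the matrix and of cell junctions changed in both directions. Of 23 tested extracellular matrix and cell junction genes 8 rose and 5 fell (median 0.07), and 7 and 4 of them held. The rises and falls are 34.8% and 21.7% of this list, beside 21.2% and 22.1% of all genes tested. The laminin chain LAMA5 went from 15.5, 8.84 and 15.7 CPM to 34.4, 25.8 and 29.6 CPM (1.15 ± 0.20), and the junction protein JUP from 14.5, 14.6 and 14.5 CPM to 22.8, 23.1 and 23.1 CPM (0.67 ± 0.06). The actin crosslinker FLNA fell by 0.66 from 114, 116 and 119 CPM to 69.4, 77.2 and 74.7 CPM. The rises in this list include SPOCK2 and AHNAK2, which had been seen as large changes when it was drawn up.

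Of 31 ion channels and transporters of the plasma membrane 16 rose and 1 fell (median 0.22). The potassium channel KCNH2 rose by 1.05 at a low level (1.31, 0.980 and 1.29 CPM against 2.52, 2.19 and 2.87 CPM) and the calcium pump ATP2B1 by 0.51. Of these rises 8 held, with 10 called without vehicle replicate 2, vehicle replicate 3 or GSK591 replicate 1. In lysosome and autophagy 17 of 44 rose and 2 fell (median 0.14). ATG16L1, which directs lipidation of LC3, rose by 0.42 from 39.4, 38.4 and 38.5 CPM to 53.9, 52.0 and 50 CPM. The count moved with every library: it was 9, 7 and 9 rises without vehicle replicates 1, 2 and 3, 7, 29 and 8 without GSK591 replicates 1, 2 and 3, and 29 without both libraries numbered 2.

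**Figure D3:**
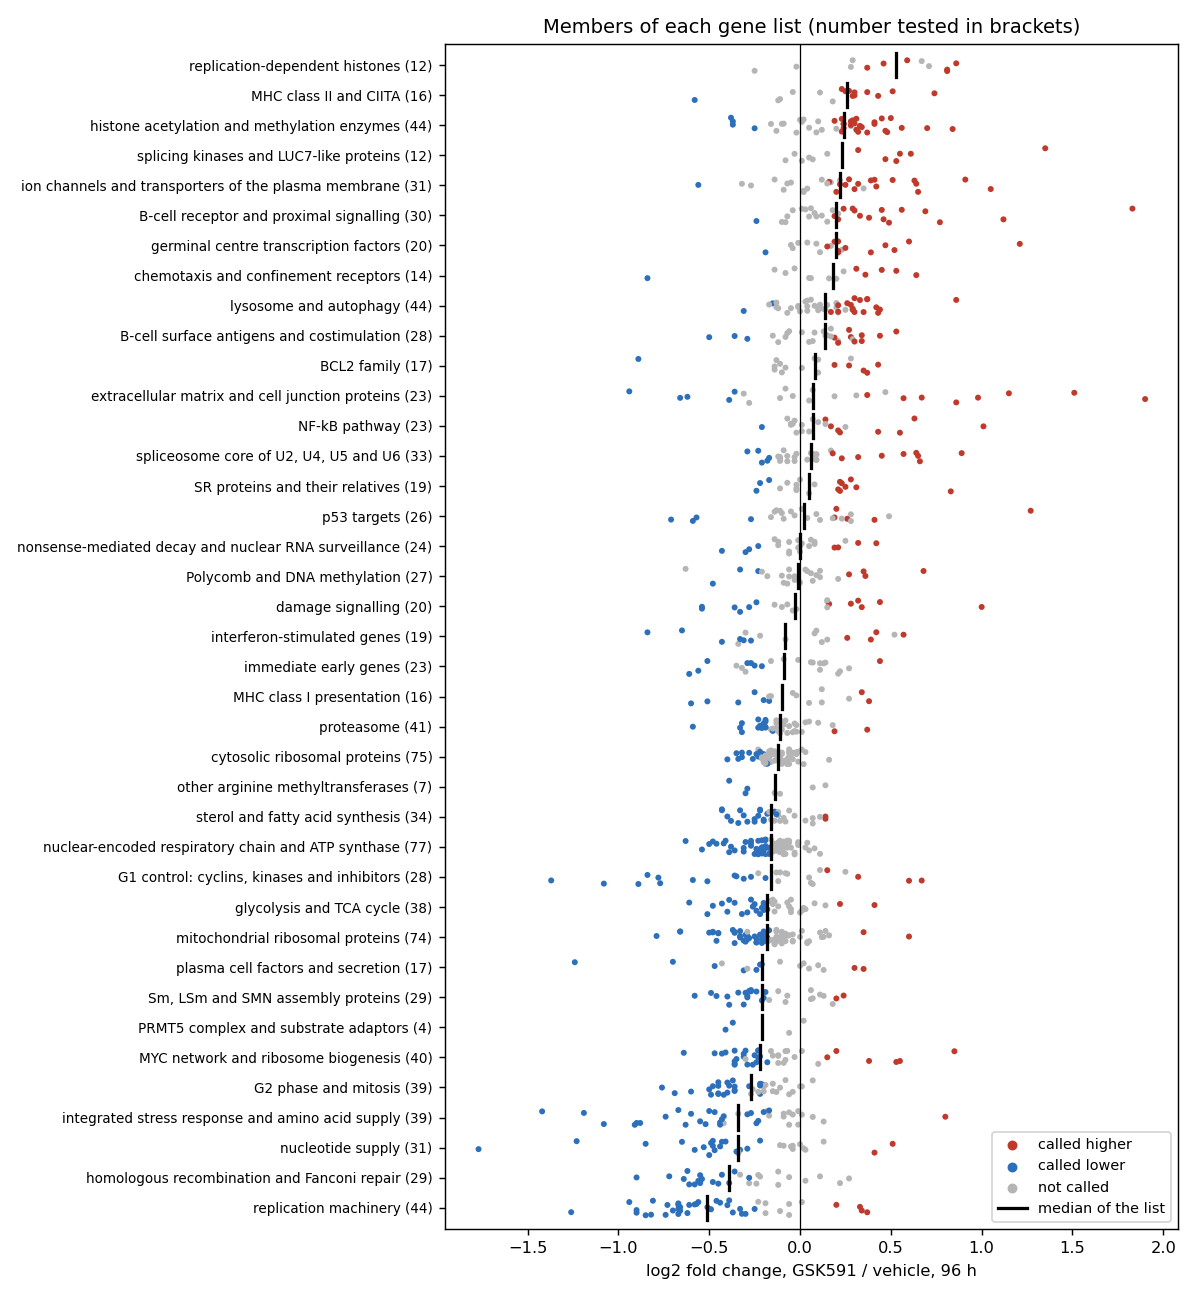
Log2 fold change of every tested member of each gene list, ordered by the list median (black bar); red and blue points were called higher and lower, grey points were not called. Replication machinery has the lowest median (-0.51) and replication-dependent histones the highest (0.53), and nearly every list holds members on both sides of 0.

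Seen by library, the lists with the larger shifts had an order. In 14 lists the treated libraries averaged at least 0.2 from vehicle on the log2 scale, and in 13 of them GSK591 replicate 2 was the treated library closest to vehicle. For the replication machinery the median of the members relative to the vehicle mean was -0.70, -0.33 and -0.57 in treated replicates 1 to 3. In vehicle replicates 1 to 3 it was -0.06, 0.13 and -0.07. For the B-cell receptor list it was 0.25, 0.16 and 0.23 against 0.03, -0.06 and 0.03. Vehicle replicate 2 was the vehicle library furthest from treated in both lists. In lists with smaller shifts this order did not always stand: for the proteasome and the respiratory chain GSK591 replicate 2 was not the closest, at -0.17 against -0.10 and -0.05, and at -0.20 against -0.19 and -0.08. Without both libraries numbered 2 the rises were 14 among surface antigens, 8 among chemotaxis receptors, 12 among NF-kB genes, 12 among p53 targets, 8 in the BCL2 family, 8 among Polycomb genes and 10 among histones. In the same setting the falls were 42 among mitochondrial ribosomal proteins, 41 in the respiratory chain, 25 in the MYC network, 27 in the stress response, 15 in the proteasome, 25 among cytosolic ribosomal proteins, 10 among immediate early genes, 9 among interferon-stimulated genes and 5 among other arginine methyltransferases. What sets these libraries apart was not tested.

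**Figure D4:**
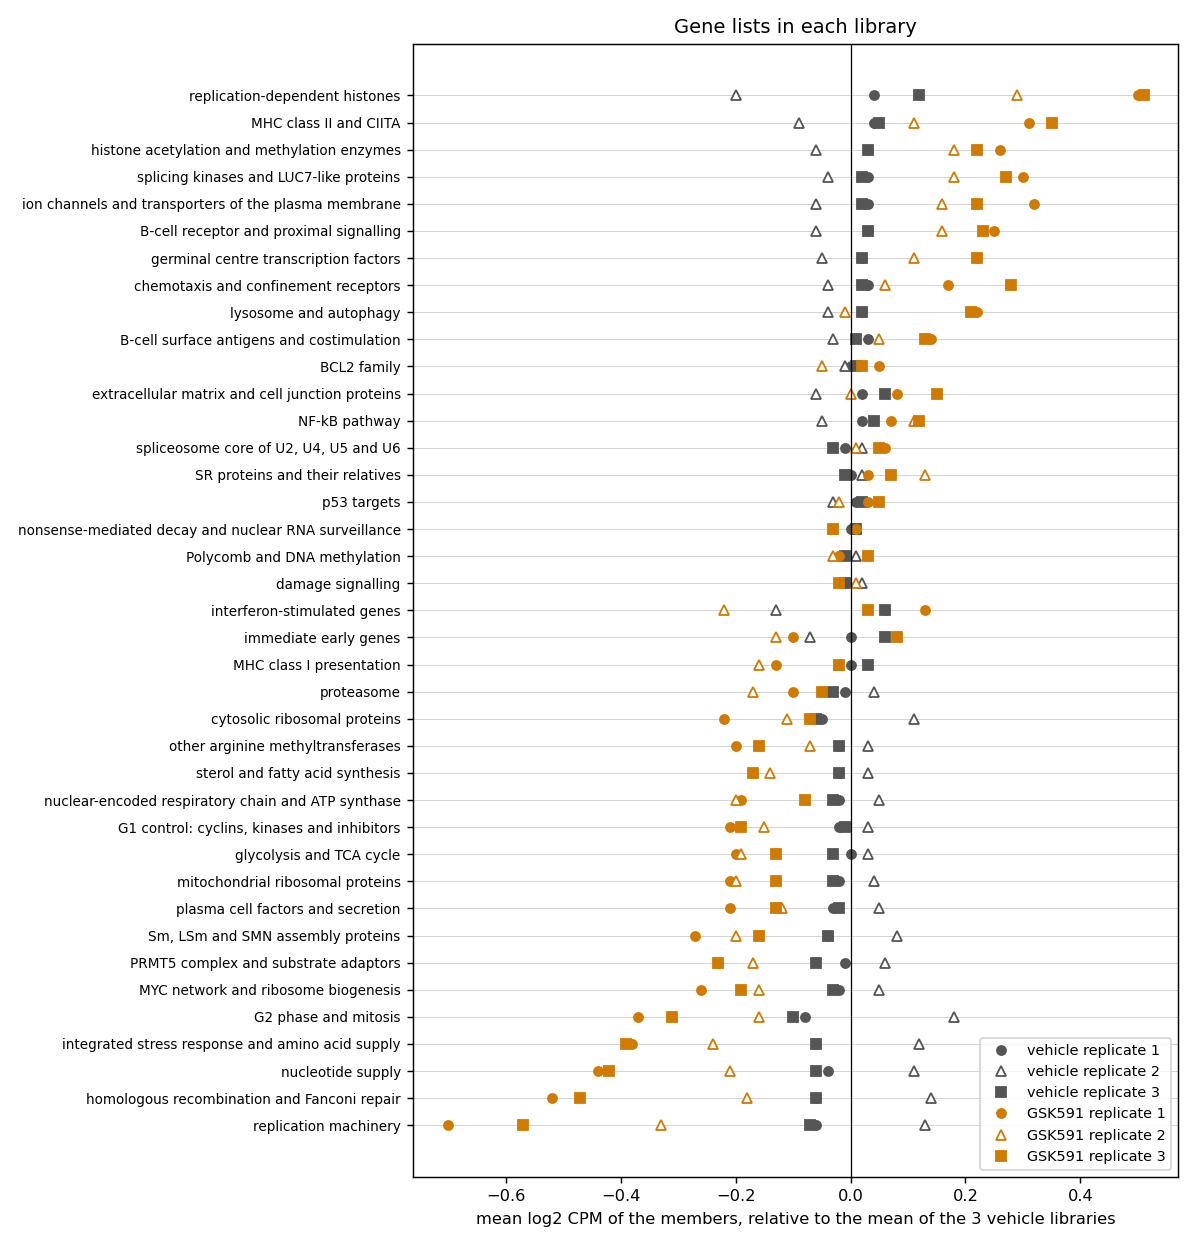
Median over the tested members of each list of their log2 CPM in each library, relative to the mean of the 3 vehicle libraries. The axis label calls this median a mean. Grey is vehicle, orange GSK591, and open triangles are the libraries numbered 2. For replication machinery, at -0.70, -0.33 and -0.57, the open orange triangle lies between vehicle and the other treated libraries, as in 13 of the 14 lists at least 0.2 from vehicle.

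The direction of the response went with the length of the transcript. Using the longest protein-coding transcript of each gene in GENCODE v29, which was found for 10867 genes (92.9%) and need not be the one these cells use, genes were cut into 5 equal groups by length. From the shortest to the longest group the share called higher was 12.4%, 17.8%, 20.1%, 26.0% and 32.1%, and the share called lower 31.1%, 26.0%, 22.3%, 17.1% and 13.3%. The shortest group ran from 217 to 1982 bases and the longest group began at 5768 bases. Without both libraries numbered 2, an alternative chosen after the data were seen, the share called higher went from 21.5% to 42.5% and the share called lower from 41.1% to 23.6%.

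The number of exons gave the same picture, with 13.6% higher in the group with fewest exons and 33.0% in the group with most, and 24.5% and 15.7% lower. GC content did not: 24.5%, 18.9%, 18.5%, 22.8% and 23.7% were higher from the lowest to the highest group. Across genes, Spearman's rho with the log2 fold change was 0.20 for length, 0.15 for exons and 0.01 for GC content, as a description over genes that share the same 6 libraries. The median log2 CPM of the shortest group relative to the vehicle mean was -0.13, -0.10 and -0.06 in treated replicates 1 to 3 and -0.02, 0.02 and -0.01 in vehicle. What lies behind the gradient was not tested. The shares of the gene lists above were set beside all genes tested, not beside genes of like length. By class of gene, 14.9% of 181 long noncoding RNA genes were called higher and 28.7% lower, beside 21.7% and 21.9% of 10862 protein-coding genes. No source used here gives the strand setting of the counting, so antisense and overlapping genes cannot be told apart.

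**Figure D5:**
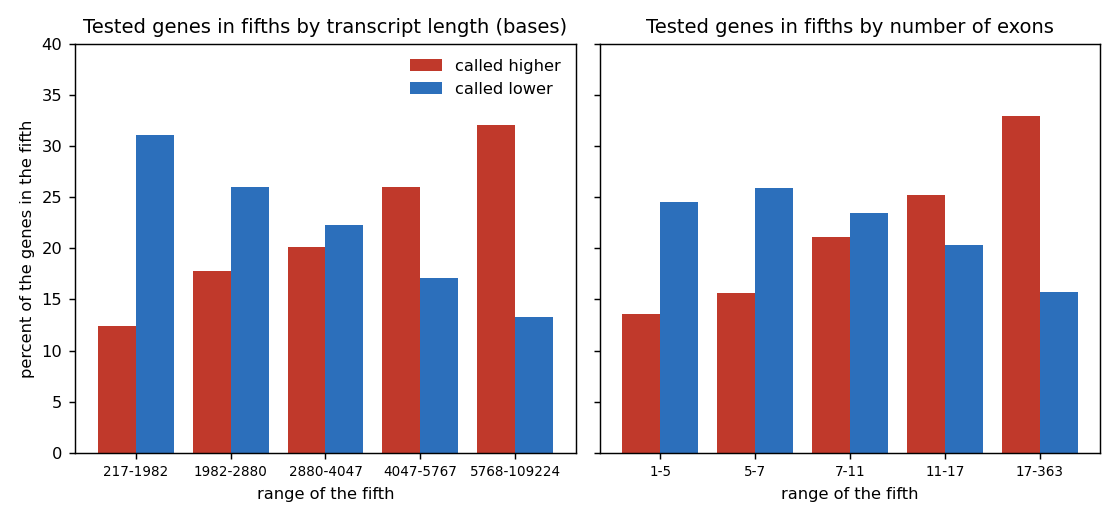
Share of genes called higher (red) and lower (blue) in 5 equal groups of the tested genes ordered by transcript length (left) and by exon number (right), with the range of each group on the horizontal axis; both bars start at 0. The share called higher climbs from 12.4% to 32.1% with length while the share called lower drops from 31.1% to 13.3%.

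The effect at 96 h was then compared with that at 24 h, each against the vehicle of its own time, in a fit of all 12 libraries, scaled together, so that a difference need not equal the subtraction of the rounded effects. The effect differed in 3323 of the 11702 genes, 28.4%, by edgeR's quasi-likelihood test of the difference with Benjamini-Hochberg adjustment. Of the 5057 genes called at 96 h, 3072 (60.7%) differed, and in all 3072 the 96 h value lay further in the direction of its own call. The median size of effect in the called genes was 0.08 at 24 h and 0.38 at 96 h, and 4043 had the same sign at both times. Those genes were chosen by their 96 h values, which favours that side. Without GSK591 replicate 2 at 96 h the count of differences was 5571, and without vehicle replicate 3 or GSK591 replicate 2 at 24 h it was 2067 and 2065.

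Some genes with late changes were near 0 at 24 h and others had begun to move. RNF216 was at 0.06 ± 0.04 at 24 h against 0.95 at 96 h. SPOCK2 was at 0.00 ± 0.55 against 1.90, an error that leaves an early change undetermined. PRPF3 had reached 0.42 at 24 h and 0.89 at 96 h and HSD17B8 -0.48 and -1.30. PRMT1 was at 0.07 at 24 h and -0.39 at 96 h (difference -0.48, adjusted p = 0.000278 in edgeR's test). The small rises of LSM10 and SREBF2 at 96 h did not differ beyond the threshold from those at 24 h (differences 0.11 and 0.04, adjusted p = 0.209 and 0.497), which does not show that they were alike.

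In the authors' deposited table of the 96 h comparison, all 5057 genes called here had the same sign and 4426 of them had an FDR under 0.05. Its log2 fold changes differed from those here by 0.002 in the median and by 0.09 at most. For SPOCK2 the authors' deposited table gave 1.93 where the fit here gave 1.90.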

How the data were processed

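Poly(A) RNA of SUDHL6 cells was sequenced, and the authors deposited raw counts per gene symbol for each library and tables of log2 fold changes and p-values for each time. STAR, HTSeq, edgeR and hg19 are named, per the submitters' processing notes; for versions, annotation and strand setting, the sources used here state nothing. No per-sample column was left unmapped.

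From the deposited counts, CPM were computed and genes with at least 1 CPM in 3 or more of the 6 libraries were kept. edgeR 4.0.16 (R 4.3.3) with TMM scaling, glmQLFit and glmQLFTest compared the groups without a replicate block, with Benjamini-Hochberg adjustment and a threshold of 0.05. Errors of log2 fold changes (SE) were worked back from the test, as the size of the change over the square root of F. They are approximate standard errors, least certain near a change of 0. The biological coefficient of variation was 8.06%. The 24 h libraries entered only the test of the difference between times. The script was tested on simulated data with known changes.

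Alternatives were other scalings, filters, DESeq2 1.42.0, a replicate block, thinning vehicle replicate 1 to 51771388 counts and leaving libraries out. The named genes were PRMT5, WDR77 and BCL6, the 10 largest rises and falls over 5 CPM with groups apart, genes crossing from under 1 to at least 2 CPM or back, the 5 largest CPM changes each way, the 5 smallest p-values and the called member of each list with the smallest p in each direction. Some genes that meet these rules are not reported here. Further members serve as examples, picked once their values were known. The comparison, the members and the gene lists were chosen with earlier results of these data known.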

Additional observations from a re-analysis of the deposited data

Results flagged for a closer look

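The effect of GSK591 at 96 h differed from that at 24 h in 3323 genes by edgeR's quasi-likelihood test of the difference, and these were taken up because 2 time points of the same contrast differ. Among the genes ranked by size, 19 of 20 passed this test. The differences of the rises, as log2 fold change at 96 h minus that at 24 h, were 1.88 for SPOCK2, 1.43 for ENPP3, 1.40 for SYT11, 1.32 for AHNAK2, 1.30 for CABP4, 1.24 for CDK18, 1.20 for PRELP, 1.18 for LUC7L and 1.08 for CHL1. Those of 9 of the 10 falls were -1.47 for RRM2, -1.09 for E2F7, -1.07 for OXCT1, -1.05 for TYMS, -1.02 for CDC45, -0.96 for SLC25A10, -0.90 for XBP1, -0.88 for PCK2 and -0.82 for HSD17B8. TTYH3, with a difference of 1.13, did not pass (adjusted p = 0.0615 in edgeR's test). All these genes were ranked by their 96 h effect, which favours larger values at that time.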

How the results depend on the processing

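The number of called genes, 5057, was 5026 without TMM scaling, 5041 with DESeq2's size factors (2610 higher, 2431 lower), 5125 with upper-quartile scaling (2285 and 2840), 4988 with vehicle replicate 1 thinned and 5459 with DESeq2. Left out one at a time, the libraries gave 3288 to 6891 called genes, 1492 to 3529 lower and 48 to 200 that fell by 2-fold or more. The 2-fold rises and falls, 159 and 86, were 498 and 192 with no filter on low counts, 352 and 136 with edgeR's own filter, 53 and 38 with a minimum of 5 CPM, and the falls were 152 without both libraries numbered 2. The difference between times was called in 2065 to 5571 genes with 1 library left out and in 5837 without both 96 h libraries numbered 2. The median of damage signalling, -0.03, ran from -0.044 to 0.008 with 1 library left out, turning to 0.006 without vehicle replicate 2 and 0.008 without GSK591 replicate 1, and the cause was not tested. Of the 105 genes named by the rule, 104 were called; 81 were called under all 16 alternatives, and 8 had no value with the minimum of 5 CPM. None changed sign. Shares by transcript length and exon number without the libraries numbered 2 were an alternative chosen after seeing the data. The labels do not say whether replicate numbers pair the samples, and the values here do not settle it. Same-numbered deviations correlated at 0.49, 0.33 and 0.02, and those of different numbers at -0.47 to 0.29. Vehicle replicate 3 correlated best with GSK591 replicate 1 (0.29), while vehicle replicates 1 and 2 did so with their own number. With a replicate block 5801 genes were called at 96 h and 4360 for the difference. Vehicle replicate 1 is about 10.6 times deeper than the others, so low genes are limited by the other 5 libraries.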
